A study of Mus musculus with 2 samples.

Results

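A set of 10 genes that mark neutrophils was followed in liver RNA after injury to the kidneys. The members were taken by name: all probe sets whose gene symbol in the platform annotation was S100a8, S100a9, Mmp8, Mmp9, Ngp, Camp, Ltf, Csf3r, Retnlg or Mpo. Of these 10 genes, 9 were named by 10 probe sets, among 18193 named genes on the array, and Retnlg was named by no probe set and was not analysed here. The 2 groups were both female, wild-type C57BL/6 mice, 8 weeks old. The sham group had sham surgery, and the AKI (acute kidney injury) group had 30 min of warm ischemia of both kidneys followed by reperfusion. Livers were taken 24 h after surgery. Frozen liver, 100 mg from each of 3 mice, was pooled within a group, and each pool was hybridised to 1 Affymetrix mouse expression array. Each group is therefore 1 measurement of a pool, the mice cannot be told apart, and no test between groups can be made. The number of arrays limits the precision.

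Neutrophils are short-lived granulocytes made in the bone marrow and released into blood. Their granule proteins are transcribed in sequence as the cells mature. Myeloperoxidase and the serine proteases of the primary granules come first, lactoferrin and the cathelicidins of the specific granules next, gelatinase and many surface receptors last. S100A8 and S100A9 form the heterodimer calprotectin, the most abundant protein of the neutrophil cytosol, which monocytes also make. A healthy liver holds few neutrophils, in its sinusoids, and they gather there in inflammation, drawn by ligands of the receptor CXCR2 and released from marrow under G-CSF. In RNA of whole tissue, a change in the number of cells of a type and a change in RNA per cell cannot be told apart.

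The members share some features of position and of upstream sequence in the RefSeq tables of GRCm38.p6. S100a8 and S100a9 are neighbours on chromosome 3, with 0 protein-coding genes annotated between them. Camp, Ngp, Ltf and Mmp8 all lie on chromosome 9, with 8 protein-coding genes between Camp and Ngp and 20 between Ngp and Ltf. The table of promoters holds 9 of the 10 members, Mmp9 being the other. The 250 bases before the start are shown for S100a8, S100a9 and Ngp, which were at least 2-fold higher in the AKI pool as described below, 5′ to 3′ on the strand of the gene. S100a8 is on the plus strand (chr3:90668821-90669070), S100a9 on the minus strand (chr3:90695722-90695971) and Ngp on the plus strand (chr9:110419558-110419807). Capitals mark matches to a motif of C/EBP factors, TTGCNNAA, or to a motif of PU.1, GAGGAAGT, on either strand.
S100a8: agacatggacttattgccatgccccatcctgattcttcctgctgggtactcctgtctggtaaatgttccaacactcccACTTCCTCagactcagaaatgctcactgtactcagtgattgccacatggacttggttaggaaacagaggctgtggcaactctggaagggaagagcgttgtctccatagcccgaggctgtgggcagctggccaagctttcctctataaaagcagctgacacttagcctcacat
S100a9: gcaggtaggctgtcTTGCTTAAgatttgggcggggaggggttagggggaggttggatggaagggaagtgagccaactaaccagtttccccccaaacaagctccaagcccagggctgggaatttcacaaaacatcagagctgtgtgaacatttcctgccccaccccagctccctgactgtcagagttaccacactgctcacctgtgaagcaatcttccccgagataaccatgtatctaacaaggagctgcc
Ngp: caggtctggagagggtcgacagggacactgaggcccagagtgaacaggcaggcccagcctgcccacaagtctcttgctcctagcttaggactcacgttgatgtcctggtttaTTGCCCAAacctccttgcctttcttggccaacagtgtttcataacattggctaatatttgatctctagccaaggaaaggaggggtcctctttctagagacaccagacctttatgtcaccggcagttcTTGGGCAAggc

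C/EBP factors and PU.1 are transcription factors of the granulocyte lineage, which is why their motifs were searched. S100a8 held the PU.1 motif on the minus strand, 172 bases before the start. S100a9 held the C/EBP motif 236 bases before the start, and Ngp held it at 138 and, on the minus strand, at 11 bases. Over all members with a window, 5 of 9 held TTGCNNAA (Ltf, Mmp8, Ngp, Retnlg and S100a9), against 9.56% of all 32851 windows of the same length. GAGGAAGT was found in 3 of 9 (Mmp8, Mpo and S100a8), against 2.44% of all windows. The STAT motif TTCNNNGAA and the NF-kB motif GGGACTTTC were found in 0 of the 9, against 7.02% and 0.289% of all windows, and TATAAA in S100a8 alone, against 12.4%. Mmp8 held both the C/EBP motif, 19 bases before the start, and the PU.1 motif, 221 bases before it. In no member did matches share bases. Motifs were chosen with the windows in view, and a match is a description of the letters, not of binding.

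Among the members, the calprotectin genes S100a8 and S100a9 were far higher in the AKI pool. The granule gene Ngp and the gelatinase gene Mmp9 were about 2-fold higher, and Mmp8, Ltf, Csf3r and Mpo differed by less than 2-fold. Camp was weak on both arrays, with a difference of 0.37 although the ratio of its signals was 2.45. Differences are log2 values, AKI minus sham, of the signal plus 71.8. This added constant, the 25th percentile of the table, makes differences of weak signals smaller than the ratio of the signals. Of the 9 named members, 4 were higher by 2-fold or more and 0 were lower by as much. The same thresholds were passed by 9.24% and 10.3% of all 18193 named genes. The median of the 9 members was 0.37, with 8 of 9 above 0, beside 0.00 and 50.3% above 0 for all named genes. A level filter kept genes whose signal reached the median probe set of at least 1 array, 225.7 on the sham array or 231.8 on the AKI array. It kept 8 of the 9 members, of which 4 were at least 2-fold higher, against 10.4% of 13128 genes, and 2 at least 4-fold higher, against 2.09%. S100a8, S100a9 and Mmp9 passed this filter through the AKI array only, so the count after filtering is a description and no support.

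**Figure D1:**
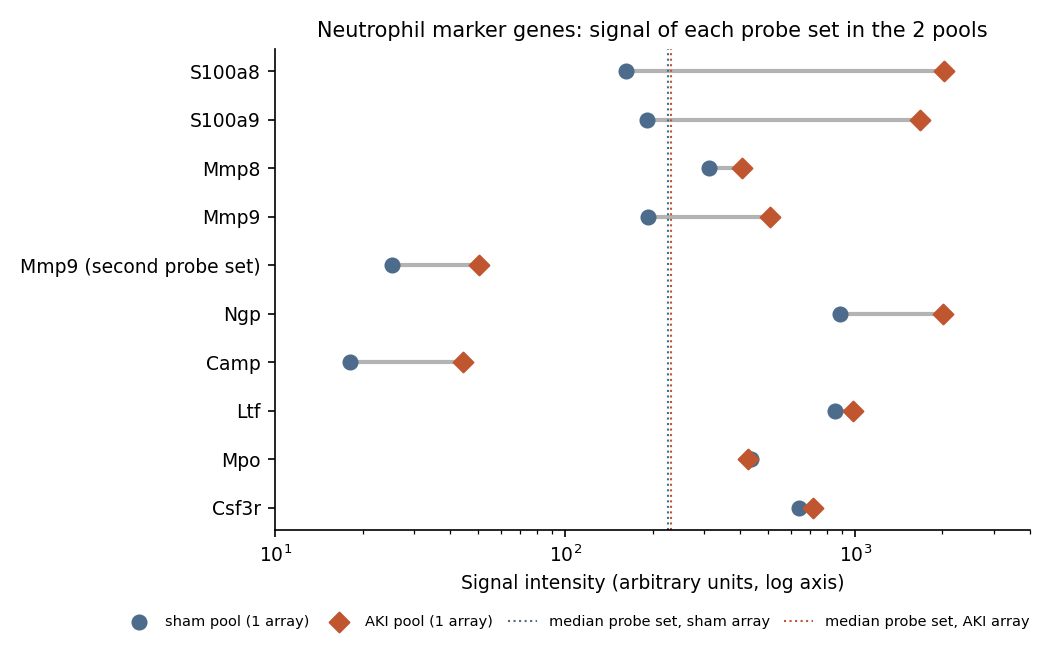
Signal of each probe set of the named neutrophil marker genes in the sham pool (circles) and the AKI pool (diamonds), on a log axis in arbitrary units, with dotted lines at the median probe set of each array. S100a8 runs from 161.4 to 2023.4 and S100a9 from 191.2 to 1666.6, crossing the medians, while Camp stays below them at 18.1 and 44.4.

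The only repeat measurement available is the spread between probe sets that target the same gene. It could be taken over 5149 genes that had several probe sets past the filter, where the SD was 0.70, and 0.66 to 0.79 in 4 classes of signal level. It leaves out the variation between arrays, between pools and between mice, and so is no error of a difference between the pools. Below, the SD given beside a member is that of its level class. For Camp, which did not pass the filter, it comes from genes that did.

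S100a8 encodes the smaller calprotectin subunit, a calcium-binding protein that is released by activated phagocytes and acts as an alarm signal. Its probe set, 1419394_s_at, had a signal of 161.4 after sham surgery and 2023.4 after kidney injury, a ratio of 12.5. The log2 difference was 3.17 (SD 0.69), the 59th highest of all 18193 named genes. The suffix _s_at marks a probe set that may match more than 1 transcript, and no other probe set is named S100a8. S100a9 encodes the partner subunit. Probe set 1448756_at had a signal of 191.2 after sham surgery and 1666.6 after kidney injury, a ratio of 8.72. Its log2 difference was 2.72 (SD 0.68), the 98th highest. Both genes were thus higher in the AKI pool by several times the SD between probe sets, which holds no variation between arrays or pools. The signal of S100a8 moved from percentile 41.5 of the sham array to percentile 93.4 of the AKI array, and that of S100a9 from 45.7 to 92.0. These ranks do not depend on how the arrays were scaled.

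Other genes of the S100 family were mostly within 2-fold, as were most named genes on the array. This family was looked at after the values of its 2 members were seen. Of 11 genes named S100a with a number, 8 passed the level filter. Of the other 6, 1 was at least 2-fold higher, S100a10, with signals of 1968.8 and 18037.1 and a difference of 3.15. Without the filter, 1 of 9 other S100a genes was higher and 0 were lower by as much. The same thresholds were passed by 9.24% and 10.3% of all named genes, so the count does not set the family apart. S100a10 encodes the partner of annexin A2 and is made in many cell types. The remaining S100a genes past the filter lay between -0.47 (S100a13) and 0.45 (S100a5). S100a4 and S100a6, which leukocytes and other motile cells make, were at 0.02, below the filter on both arrays, and at 0.37.

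The specific granule genes differed among themselves. Ngp encodes neutrophilic granule protein, a relative of the cathelicidins, and its probe set 1418722_at had a signal of 889.1 after sham surgery and 2012.4 after kidney injury. The ratio was 2.26 and the log2 difference 1.12 (SD 0.69), rank 1376 of all named genes. Ngp was above the median probe set on both arrays, at percentile 84.1 after sham surgery and 93.4 after kidney injury. Ltf encodes lactoferrin, the iron-binding protein of the same granules. Probe set 1450009_at had signals of 854.4 and 981.6, a log2 difference of 0.19 (SD 0.68), and of -0.06 when the arrays were centred on reference genes. Camp encodes the precursor of the cathelicidin peptide CRAMP. Its probe set 1419691_at was weak on both arrays, 18.1 and 44.4, at percentiles 7.48 and 17.2. Its log2 difference was 0.37 (SD 0.79) although the ratio of the signals was 2.45, and with an added constant of 1 it was 1.25. The table holds no detection calls, so whether signals as weak as those of Camp were above background could not be read from it. Within the granule group, then, 1 of 3 genes was past 2-fold with 71.8 added, and the difference of Ltf was smaller than the SD between probe sets. With an added constant of 1, Camp was past 2-fold too.

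The metalloproteinases also differed. Mmp9 encodes gelatinase B, stored in gelatinase granules, and was represented by 2 probe sets. The stronger, 1416298_at, had a signal of 193.2 after sham surgery and 509.0 after kidney injury, a ratio of 2.63 and a log2 difference of 1.13 (SD 0.79). The weaker, 1448291_at, had signals of 25.3 and 50.4, below the median probe set on both arrays. Its ratio was 1.99 and its difference 0.33. Both probe sets were higher in the AKI pool, and their mean difference was 0.73, under 2-fold. Mmp8 encodes neutrophil collagenase. Its probe set 1449366_at had signals of 313.8 and 405.8, a difference of 0.31 (SD 0.79), which is within the SD. The other Mmp genes were also looked at after the members. Of 16 that were named, 2 were at least 2-fold higher, Mmp23 (55.9 and 489.4, 2.14) and Mmp7 (103.8 and 362.2, 1.31), both above the filter on the AKI array only. Another, Mmp19, was at least 2-fold lower (219.3 and 72.8, -1.01), below the filter on both arrays. The same thresholds were passed by 9.24% and 10.3% of all named genes.

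The primary granule enzyme and the growth factor receptor were nearly level. Mpo encodes myeloperoxidase, made at the promyelocyte stage. Probe set 1415960_at had a signal of 438.1 after sham surgery and 426.1 after kidney injury, a log2 difference of -0.03 (SD 0.79). This was 0.26 with the arrays centred on hybridization controls. Csf3r encodes the receptor for G-CSF, the growth factor of neutrophils. Probe set 1418806_at had signals of 640.1 and 715.3, a difference of 0.14 (SD 0.68), which was -0.10 with the reference gene centring. The signals of both genes were above the median probe set on both arrays, and neither difference was larger than the SD between probe sets.

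**Figure D2:**
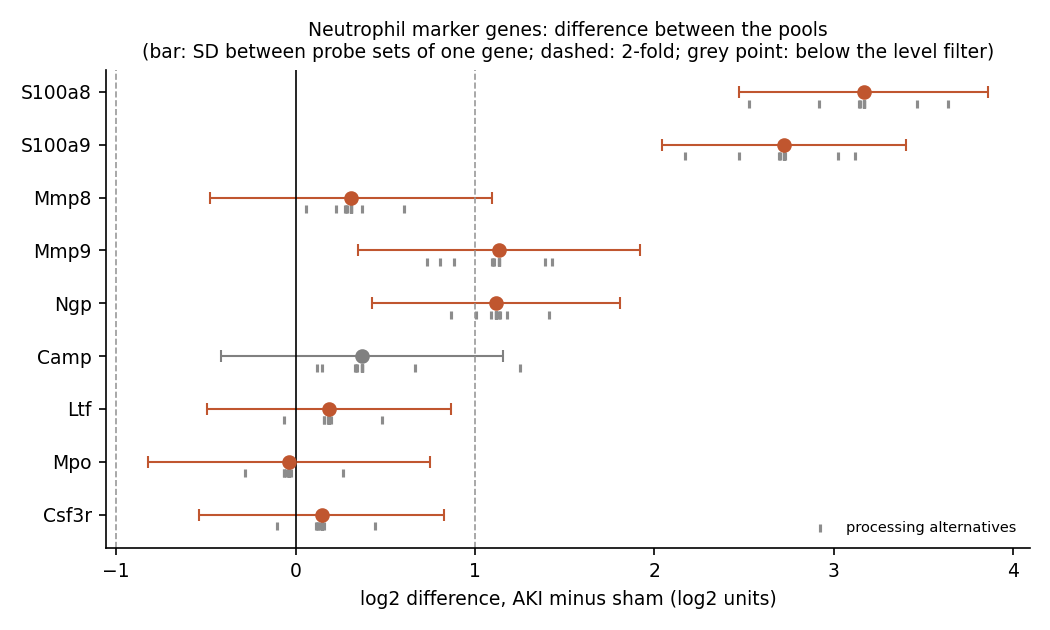
Log2 difference, AKI minus sham, of each named neutrophil marker gene (points), with the SD between probe sets of one gene in its level class (bars) and the values under the processing alternatives (grey ticks). S100a8 (3.17) and S100a9 (2.72) stay past 2-fold in all alternatives that give a value, while Mmp9 (1.13) and Ngp (1.12) lie near the 2-fold line, and Ltf, Csf3r and Mpo have ticks on both sides of 0 because centring on reference genes or on hybridization controls turns their sign.

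With 2 arrays, no likeness of pattern between genes can be measured. Other genes of neutrophil function and recruitment were therefore taken from 7 lists by role, with 70 entries. Of these, 61 were named and 45 passed the level filter. Over the 61 named genes, 13 were higher by 2-fold or more and 4 were lower by as much, where all named genes gave 9.24% and 10.3%, and their median was 0.20. Past the filter the counts were 12 and 3 of 45, where all genes past it gave 10.4% and 12.5%. Of these 12, Cxcl2, Cxcl3, Icam1 and Il1r2 passed through the AKI array only. Of the 3 lower, Prtn3 (253.3 and 37.1) and Ptafr (257.6 and 56.1) passed through the sham array only. The filtered counts and medians of the lists are therefore descriptions and no support. The lists differed in how many of their genes were past 2-fold.

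Of 12 other granule genes, 8 passed the filter, with 1 higher, 1 lower and a median of 0.33. All genes past the filter gave 10.4% higher and 12.5% lower, so these counts do not set the list apart. The higher gene was Lcn2, the lipocalin of specific granules that inflamed hepatocytes also secrete, with signals of 1024.3 and 65012.4 and a difference of 5.89. The lower gene was Prtn3, proteinase 3 of the primary granules, with signals of 253.3 and 37.1 and a difference of -1.58, or -0.86 with an added constant of 228.7. Elane, neutrophil elastase of the same granules, was at 0.76, and Ctsg, cathepsin G, was below the filter at 53.5 and 18.5. The primary granule genes, Mpo included, thus lay on both sides of 0. Hp, haptoglobin, which is in granules and is a main product of hepatocytes, was at 0.57. Cd177, also past the filter, was at -0.57, with signals of 304.7 and 181.2, and Adam8 was at 0.51. Chil3, a chitinase-like gene of neutrophils and macrophages, was below the filter, with signals of 17.8 and 185.6. Of the subunits of the NADPH oxidase, which makes superoxide in phagocytes, 5 of 6 passed the filter and 0 were past 2-fold in either direction. That count uses the main probe set of each gene. Ncf1 was at 0.18 by this probe set, but its 3 probe sets spanned 0.18 to 1.01, with a mean of 0.52. The list median was -0.13, or 0.16 with the centring on hybridization controls and 0.03 with the mean of all probe sets. The range was -0.43 (Ncf4) to 0.69 (Rac2), with Cybb at -0.18 by its main probe set. The 3 probe sets of Cybb spanned -0.22 to 0.48, with a mean of 0.03.

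Among 19 surface receptor genes, 12 passed the filter, with 2 higher, 1 lower and a median of 0.41. The higher ones were Il1r2, the decoy receptor for interleukin-1 (161.9 after sham surgery and 893.7 after kidney injury, 2.05), and Fpr2, a formyl peptide receptor (505.6 and 1159.3, 1.09, or 0.84 with the reference gene centring). Ptafr, the receptor for platelet-activating factor, was lower at -1.36, with its other probe set at 0.24 and their mean at -0.56. Itgb2, the beta chain of the leukocyte integrins, was at 0.78. Some other genes of the list were weak or were not measured by a probe set of their own. Cxcr2, the chemokine receptor that guides neutrophils into tissue, had signals of 162.2 and 113.1, and Itgam, the integrin chain CD11b, 32.2 and 44.4, both below the filter. Ly6g, Cxcr1 and Fpr1 were named by no single-gene probe set. Of the 15 named receptor genes, 2 were thus at least 2-fold higher and 1 lower, beside 9.24% and 10.3% of all named genes. Counts as small as these do not set the list apart from all genes. Il1r2 and Fpr2 were higher in the AKI pool, as were S100a8 and S100a9, and Cxcr2 was not. A difference between the pools cannot tell whether a gene marks neutrophils in this tissue. No signal in the table is at 0, the lowest being 0.6.

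Of 10 cytosolic and secreted genes, 5 passed the filter, with 2 higher and 1 lower, beside 10.4% and 12.5% of all genes past it. Anxa1, which encodes the anti-inflammatory annexin A1, was higher at 1.79, although its other probe set was at -0.03. Il1b, the interleukin-1 beta gene, was higher at 1.43 with signals of 521.3 and 1526.4. Slpi, an inhibitor of neutrophil elastase, was lower at -1.25, or -0.96 with an added constant of 228.7. Alox5ap was at 0.20. Padi4, Stfa3 and Stfa2l1, which are characteristic of neutrophils, were below the filter. The median of the 5 was 0.20, or -0.045 with the centring on reference genes. Of the transcription factor genes, 4 of 6 passed the filter. Cebpd, a C/EBP gene induced in inflammation in many cells, was higher at 2.33, with its other probe set at 0.58. Spi1, the gene of PU.1, was at 0.26, Cebpb at 0.84 and Cebpa, which hepatocytes also make, at -0.93. Gfi1, a regulator of granulocyte progenitors, had signals of 12.7 and 21.3, below the filter.

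Among genes of recruitment several attractants were far higher in the AKI pool. Of 11 attractants and growth factors, 7 passed the filter, with 4 higher, 0 lower and a median of 2.03. All genes past the filter gave 10.4% higher and 12.5% lower. The CXCR2 ligand genes Cxcl2 (119.3 and 9009.6, 5.57), Cxcl1 (1902.4 and 30147.0, 3.94) and Cxcl3 (34.5 and 362.1, 2.03) were higher. The 3 probe sets of Cxcl1 spanned 3.94 to 6.62. Csf3, the gene of G-CSF, was at 2.13, with signals of 245.3 and 1314.2. Its receptor gene Csf3r, a member, was at 0.14. Cxcl5, another CXCR2 ligand gene, was below the filter at 191.6 and 201.6. Without the level filter the median of all 11 was 0.78. Of 6 vascular molecules that capture leukocytes, 4 passed the filter. Icam1, the ligand of the leukocyte integrins, was higher at 2.44 and Selp, P-selectin, at 2.15, with the 3 probe sets of Selp between 1.93 and 2.49. Vcam1 was at -0.38 by its main probe set, with 2 of its 3 probe sets above 0 and their mean at 0.14. Pecam1 was at 0.18, or -0.07 with the reference gene centring. Icam2, another integrin ligand, was below the filter with signals of 167.2 and 19.5, a difference of -1.39. The median of the 4 was 1.16, and of all 6 genes without the filter 0.42.

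**Figure D3:**
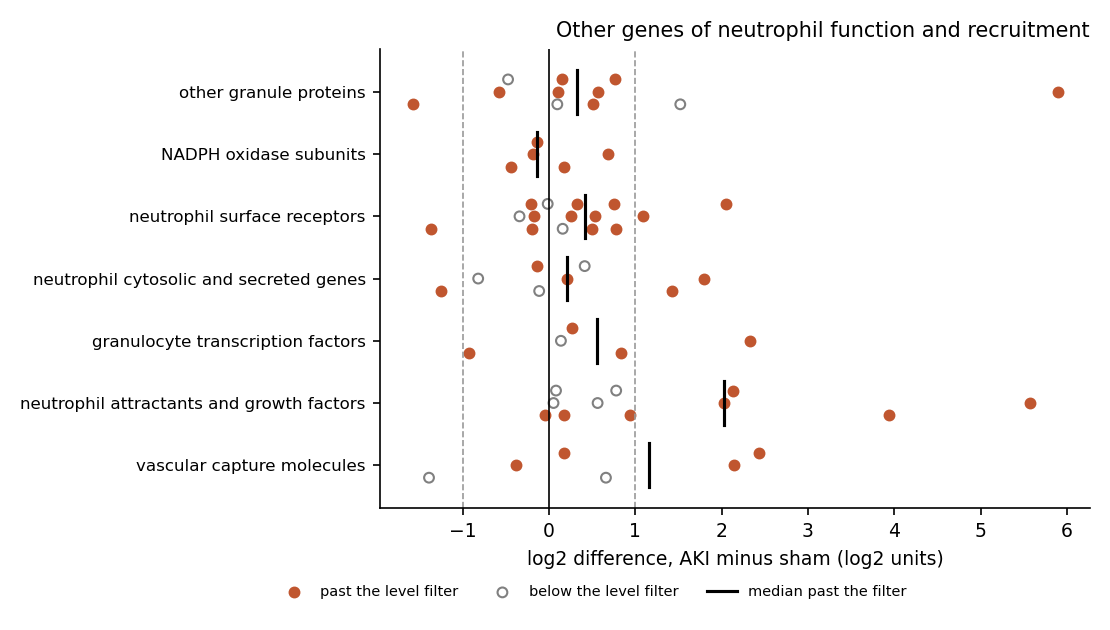
Log2 difference, AKI minus sham, of other genes of neutrophil function and recruitment in 7 lists. Filled points passed the level filter, open points did not, bars are list medians and dashed lines mark 2-fold. The attractants reach 5.57 (Cxcl2) with a median of 2.03, while the 5 NADPH oxidase genes, by their main probe sets, lie within 2-fold of 0.

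Markers of other cells that the tissue holds were measured on the same arrays, and their part in the differences of the members was not tested. S100a8 and S100a9 are also made by monocytes. Of 6 monocyte genes, 5 passed the filter and 0 were past 2-fold, with a median of 0.47. Their summed signal was 2757.3 after sham surgery and 3832.7 after kidney injury. Plac8 was at 0.87, Ms4a6c at 0.49 and Fcgr1 at -0.90. The other probe set of Ms4a6c was at -0.31, and the mean over its probe sets was 0.09. Ccr2, the receptor that brings monocytes out of the marrow, was at 0.47 by its main probe set, but 3 of its 4 probe sets were below 0 and their mean was -0.38. With the mean of all probe sets the monocyte median was 0.09. Of 12 genes of macrophages, among them genes of Kupffer cells, the resident macrophages of the liver, all passed the filter. They had a median of -0.52, with a summed signal of 18295.5 and 11739.8. At least 2-fold lower were Clec4f (-1.37), a receptor found on Kupffer cells, Cd5l (-1.24) and C1qa (-1.01). These were 3 of the 12 genes, and 1 was higher, beside 12.5% lower and 10.4% higher among all genes past the filter. The scavenger receptor gene Marco was higher (187.4 and 640.3, 1.46) and was above the filter on the AKI array only. Cd68, the other gene of the list above 0, was at 0.62, with signals of 358.4 and 587.9. With the centring on hybridization controls Cd5l was at -0.94 and C1qa at -0.72, under 2-fold. Pan-leukocyte genes had a median of 0.21 over 5 genes, with Ptprc, the gene of CD45, at 0.21 and 0 of 5 past 2-fold. This median was -0.04 with the reference gene centring. Their summed signal, over 6 named genes, was 3349.6 and 3250.3. The sum rests on Laptm5, a lysosomal membrane gene of leukocytes, whose main probe set went from 1327.8 to 810.6 (-0.67) while its 5 probe sets spanned -0.67 to 0.83 with a mean of 0.03. Without Laptm5 the sum was 2021.8 and 2439.7, and the other 5 genes, Cd52 (0.30) and Lcp1 (0.21) among them, had ratios of 1.17 to 1.46. The mean over the probe sets of Lcp1 was -0.14, and with the mean of all probe sets the list median was 0.03.

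Of the lymphoid lists, 4 named B cell genes had summed signals of 3061.7 and 2934.8 and a median of -0.03, or 0.27 with the centring on hybridization controls. They were Cd79a (0.22), Ighm (-0.18), Cd79b (-0.05) and Ms4a1 (-0.01), and the mean over the probe sets of Ms4a1 was 0.22. Of 6 named T cell genes only Cd8a passed the filter, at 0.82 with 5 probe sets between -0.21 and 0.82, and the Cd3 chain genes were all below it. The NK cell list had a median of 0.37 over 4 genes, with Nkg7 higher (1.27), Gzma at 0.49, Ncr1 at 0.26 and Klrd1 at 0.03, and summed signals of 790.8 and 1172.4. Nkg7 (68.6 and 266.1) and Gzma (184.8 and 288.2) were above the filter on the AKI array only. Of the 5 genes of eosinophils, basophils and mast cells, 2 passed the filter, Epx (-0.96) and Cpa3 (-0.08), and the summed signals were 1006.0 and 1007.2. Below the filter were Prg2 (22.4 and 189.4, 1.47), Mcpt8 (49.9 and 132.8, 0.75) and Siglecf (59.6 and 4.2, -0.79). Among genes of red cells, Alas2 was at 0.19 and Slc4a1 at 0.07, and the summed signals of 3 named genes were 1433.4 and 1563.9. The platelet list was at 0.13 over 3 genes, or -0.12 with the reference gene centring, with Pf4 at 0.61, Gp9 at -0.48, Itga2b at 0.13 and summed signals of 1845.9 and 2200.4. Hepatocyte genes had a median of -0.40 over 7 genes, with 0 past 2-fold and summed signals of 410423.1 and 319437.5. Among them were Hnf4a (-0.83), Ass1 (-0.79), Apoa1 (-0.54) and Cps1 (-0.40). The probe set of Ass1 was weak, at 371.4 and 185.4, below the median probe set of the AKI array. Apob was at -0.36 by its main probe set, with its other at 0.71 and their mean at 0.18. Albumin, Alb, had signals of 124515.9 and 98303.4. The tissue label was thus borne out by strong hepatocyte signals in both pools.

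**Figure D4:**
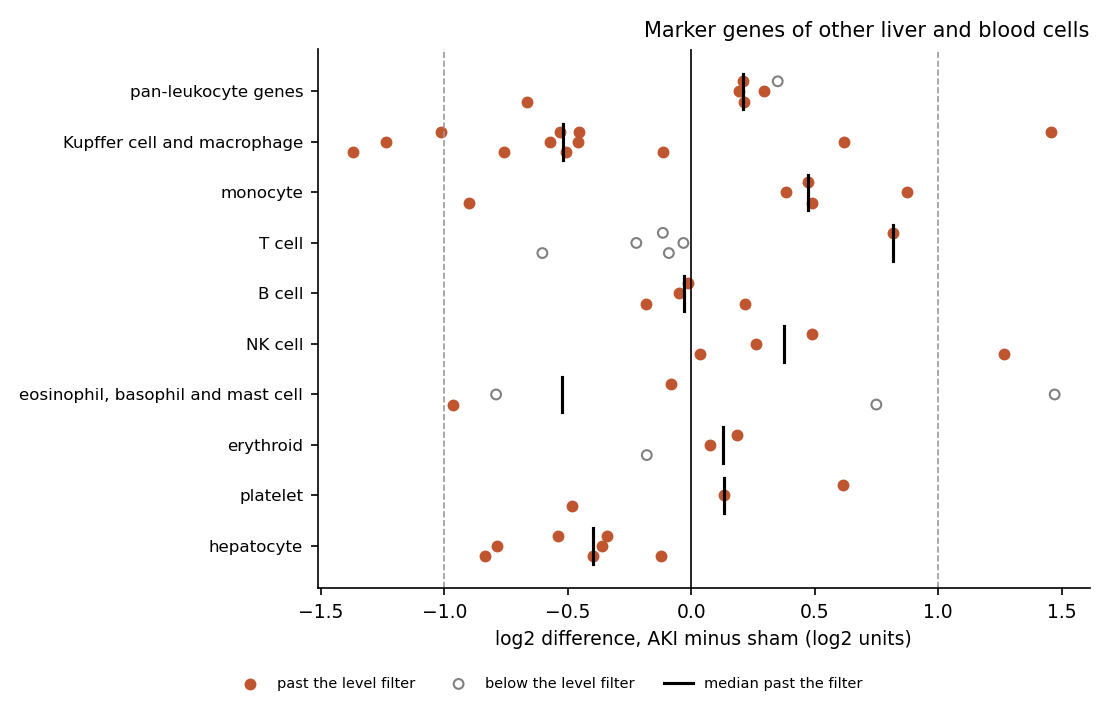
Log2 difference, AKI minus sham, of marker genes of other liver and blood cells in 10 lists, drawn with filled points for genes past the level filter, open points for the rest, bars for list medians and dashed lines at 2-fold. Kupffer cell and macrophage genes lie mostly below 0 (median -0.52) and monocyte genes mostly above it (median 0.47, or 0.09 with the mean of all probe sets). Both lie within 2-fold except for Clec4f, Cd5l, C1qa and Marco. The medians of the pan-leukocyte and platelet lists turn negative with centring on reference genes, and that of the B cell list turns positive with centring on hybridization controls.

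The arrays had a common mean signal of 500.0 after trimming 2% at each end, set by the authors. Relative to this scaling, 1370 genes past the filter were higher by 2-fold or more and 1635 were lower by as much, so that higher genes made up 45.6% of both. Centring on 18 hybridization controls moved every difference up by 0.30 and made this share 67.5%. Centring on 9 reference genes moved every difference down by 0.25 and made it 28.1%. The members' positions relative to all genes stay as they are under such shifts. With the reference gene centring S100a8 was at 2.92, S100a9 at 2.48, Mmp9 at 0.88 and Ngp at 0.87, so that 2 of 8 members rather than 4 were past 2-fold. The ratio of 3′ to 5′ control signals was 1.61 after sham surgery and 2.24 after kidney injury for Actb, 0.86 and 1.05 for Gapdh, and 3.66 and 3.50 for Pcx. The part of RNA quality in the members' differences was not tested.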

How the data were processed

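Signal intensities were measured in liver RNA on 2 Affymetrix arrays, 1 sham pool and 1 AKI pool. The intensity values were deposited by the authors with no log taken, and run from 0.6 to 127786.6. The program behind them is not stated in the labels, and biotinylated cRNA came from 8 ug of total RNA, per the labels' protocols. Of 45101 probe sets, 64 are controls. Of the others, 34945 carry 1 gene symbol in the platform annotation, 932 several and 9160 none. Of the first, 34741 matched a gene of GRCm38.p6 in RefSeq by gene number, with 0 symbols altered.

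Arrays were used as the authors had scaled them, and 71.8 was added to each signal before log2 was taken. Each gene is represented by its probe set with the highest mean log2 level. With 1 array per group there is no test, p-value or replicate SD, and a call means past 2-fold. Members and lists were chosen with earlier results of these data known. All members were named. From every other list up to 4 genes with the largest absolute difference past the filter were named, or all where a count was 5 or fewer. Genes named as below the filter, and others that show the range or a role of a list, were added after their values were seen. Alternatives were median, quantile, lowess (fraction 0.3), hybridization control and reference gene scaling, added constants of 1 or 228.7, 3 other filters (none, the 75th percentile, the mean of both arrays), averaging over the probe sets that share a gene, and leaving out probe sets with suffix _s_at, _x_at or _a_at. The computation was tested on simulated data. Python 3.11.15 was used with numpy 2.4.6, pandas 2.3.3, statsmodels 0.14.6 and matplotlib 3.10.9.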

Additional observations from a re-analysis of the deposited data

How the results depend on the processing

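S100a8 was between 2.53 and 3.64 in 11 alternatives and S100a9 between 2.17 and 3.12 in 12, all past 2-fold; without probe sets of suffix _s_at, _x_at or _a_at, S100a8 has no value. Ngp was past 2-fold in 11 of 12 alternatives and Mmp9 in 9 of 12. The 3 other filters change which genes are counted and cannot change the difference of a gene. Averaging cannot change it where a gene has 1 probe set. Leaving out suffixed probe sets cannot change it where no probe set of the gene has such a suffix. Those alternatives are included in the counts but show nothing about stability. Camp was at 1.25 with an added constant of 1. The count of members past 2-fold, 4 of 8, was 2 with centring on reference genes and 3 or 4 otherwise. The members' median, 0.71 over the 8 past the filter, was 1.01 with centring on hybridization controls, 0.46 with centring on reference genes, 0.37 with no filter, 1.12 over 5 members with the 75th percentile filter and 0.31 without the suffixed probe sets. Over all genes, 1370 higher and 1635 lower became 2211 and 1066 with centring on hybridization controls, 930 and 2381 when reference genes set the centre, and 841 and 1063 with an added constant of 228.7. For a single gene the limit was the SD between probe sets of its level class. For a list median it was the SD over all classes divided by the root of the number of genes, which is no error of the median. Of the values for other genes and lists, 845 stayed within these limits and 32 did not, and 0 of those past 2-fold changed sign. The 845 include values that the alternative could not change. Of 20 named genes of these lists past 2-fold, 12 were past it in every alternative that gave them a value, among them Il1r2, Il1b, Cxcl1, Cxcl2, Csf3 and Icam1, and 8 were not (Anxa1, C1qa, Cd5l, Fpr2, Nkg7, Prtn3, Ptafr and Slpi). No paired analysis was possible because each group is 1 pool on 1 array, and no replicate could be left out. The spread between mice cannot be estimated, and weak signals near background, as those of Camp, are the least certain.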
